A study of Mus musculus with 6 samples.

Results

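The genes described here encode the antioxidant and glutathione system under the transcription factor NRF2: 42 genes chosen by name, of 24848 gene symbols in the table. They cover NRF2 (Nfe2l2) and its repressor Keap1, glutathione synthesis and recycling, glutathione transferases, carbonyl- and quinone-reducing enzymes, the thioredoxin system with the peroxiredoxins, the peroxidases, dismutases and catalase, the NADPH-producing enzymes and a conjugate exporter. They were followed in RAW 264.7 cells, a macrophage-like mouse line derived from a tumour that Abelson leukaemia virus had induced. Poly(A) RNA was sequenced from 3 plates of wild-type cells (WT) and 3 plates of RAW 264.7 cells carrying an APOBEC1 knockout (KO). APOBEC1 is the cytidine deaminase that edits C to U in mRNA. Both groups were grown in the same high-glucose DMEM with low-endotoxin serum, and no other treatment is labelled. The study used these libraries to measure RNA editing, and the expression comparison is KO against WT. Neither the method of knockout nor the number of clones is in the labels, so effects of the genotype and of other differences between the lines cannot be told apart. The plates are the replicates, and p-values reflect only how they vary.

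In a resting cell KEAP1 holds NRF2 in the cytoplasm and passes it to the proteasome. When reactive molecules modify KEAP1, NRF2 accumulates, enters the nucleus, pairs with small MAF proteins and binds antioxidant response elements in its targets. Those targets make glutathione, conjugate it to electrophiles, reduce carbonyls and quinones, and supply thioredoxin and NADPH. Macrophages draw on the same enzymes to contain the oxidants they release when they engulf microbes.

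The libraries held 50493447 to 70411383 reads, so that 1 read was worth 0.0142 to 0.0198 CPM (reads of a gene scaled to a common library total). Pearson correlations across genes were 0.988 to 0.998 within groups and 0.969 to 0.978 between them. Of 12 macrophage markers, 11 stood at 1 CPM or more in every library, and the 12 summed to 3676 to 3820 CPM in WT and 3993 to 4427 CPM in KO. The higher KO sum was carried by Lyz2 (lysozyme, 708 CPM in WT and 1238 CPM in KO), and without it the sums were 2975 to 3158 and 2851 to 3076 CPM. By the test, 4 macrophage markers rose (Lyz2, Spi1, Mertk and Cx3cr1), 3 fell (Adgre1, Fcgr1 and Mrc1) and 5 did not pass. Over all tested genes 13.5% rose and 16.9% fell. Mrc1 reached 1 CPM only in WT, and so had to differ once it was tested. The part of such marker changes in the results was not tested. The lists for fibroblasts, epithelium, T cells and B cells each summed to 0.368 CPM or less in every library. In the neutrophil list S100a9, Ly6g, Mpo and Elane were listed at 0, and S100a8 carried the whole sum of 0.856 to 1.07 CPM in WT and 3.12 to 4.55 CPM in KO. In bulk RNA, fewer cells of a kind and less RNA per cell cannot be told apart. Apobec1 itself averaged 399.8 ± 29.3 CPM in WT and 346.8 ± 12.5 CPM in KO (SD, n = 3 each), a log2 fold change of -0.20 ± 0.07 (SE) with an adjusted p of 0.0663 and an exact two-sided permutation p of 0.1, the smallest that 3 against 3 plates can give. Without WT replicate 1 the adjusted p was 0.0169. Apobec1 lies on chromosome 6, where tested genes had a median of -0.16 on the log2 scale, and after centring by chromosome its value was -0.045 (adjusted p = 0.641). Its level therefore does not check the genotype label.

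Of the 42 genes, 36 reached 1 CPM in at least 3 libraries and were tested with limma. Of these, 18 rose and 4 fell in KO at an adjusted p under 0.05, and 14 did not pass. The share called was 61.1% of those tested, beside 30.4% of all 10614 genes tested (3230 genes, and 1973 without KO replicate 1). Genes that rose made up 50% of the tested members against 13.5% of all genes, and genes that fell 11.1% against 16.9%. The members and the related lists were chosen with earlier results of these data known. Their shares, here and below, therefore describe the lists and do not test them. The median log2 fold change was 0.20 over the members and -0.02 over all genes. In 26 of 36 members the 3 KO libraries lay wholly above or wholly below the 3 WT libraries, which is 72.2% beside 46.4% of all genes. Cbr3 and Mgst1 passed the expression minimum only through their KO libraries and so had to differ. Without them, 16 of 34 rose, 4 fell and the median was 0.16. The number that fell was 2 without KO replicate 1 and 2 without KO replicate 3, while the number that rose stayed between 15 and 18 whichever library was left out. Summed over the 42 genes, expression was 5939, 5606 and 5723 CPM in the WT libraries and 6766, 7127 and 6562 CPM in KO, 1.18 times the WT mean.

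**Figure D1:**
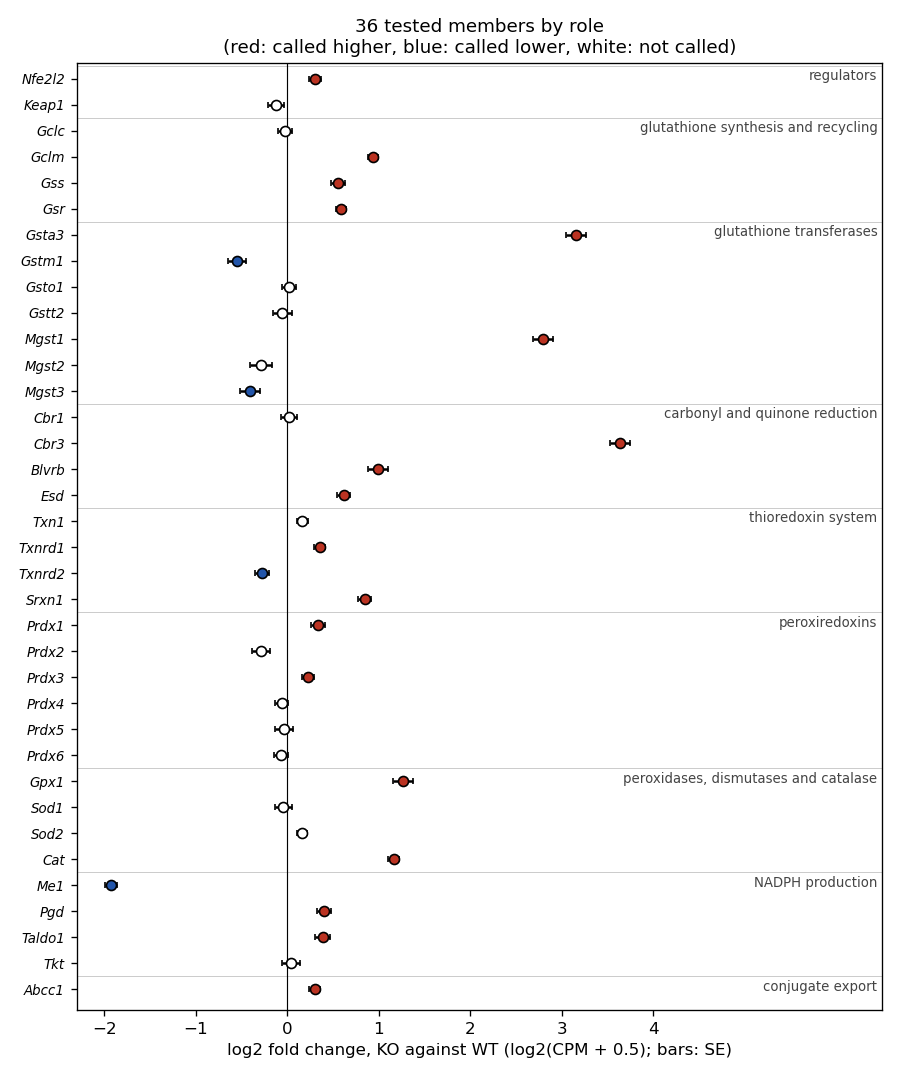
Log2 fold change (KO minus WT, on log2(CPM + 0.5)) of each of the 36 tested genes with its standard error, grouped by role and marked by call. Cbr3, Gsta3 and Mgst1 lie far to the right at 2.80 to 3.64, Me1 lies alone on the left at -1.92, and the peroxiredoxins lie between -0.29 and 0.34.

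The promoters shown hold a match to the element that NRF2 binds, so that it can be read in them. All are of members called higher or lower, and not every promoter with a match is shown. Those of Pgd, Sod1 and G6pdx also hold the core given below, and those of Blvrb, Gstp1, Gstt1 and Taldo1 hold its variant. The promoters of Cbr3, Gpx1 and Cat hold neither and are not shown. Sequences are from RefSeq on build GRCm38.p6, 5′ to 3′ on the gene's own strand, and the capitals mark the 9-base core of an antioxidant response element, TGACNNNGC, or its variant TGAGNNNGC, on either strand. For Gsta3, Gclm, Srxn1 and Me1 the stretch runs from 250 bases before the annotated start to 30 bases after it. They lie at chr1:21240335-21240614 for Gsta3, chr3:122245307-122245586 for Gclm, chr2:152105274-152105553 for Srxn1 (all on the plus strand) and chr9:86695885-86696164 for Me1 (minus strand).
Gsta3: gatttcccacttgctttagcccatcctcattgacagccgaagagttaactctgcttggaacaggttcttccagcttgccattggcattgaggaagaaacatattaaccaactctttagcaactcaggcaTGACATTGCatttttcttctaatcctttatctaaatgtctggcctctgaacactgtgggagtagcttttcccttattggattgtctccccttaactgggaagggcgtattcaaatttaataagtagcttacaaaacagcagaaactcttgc
Gclm: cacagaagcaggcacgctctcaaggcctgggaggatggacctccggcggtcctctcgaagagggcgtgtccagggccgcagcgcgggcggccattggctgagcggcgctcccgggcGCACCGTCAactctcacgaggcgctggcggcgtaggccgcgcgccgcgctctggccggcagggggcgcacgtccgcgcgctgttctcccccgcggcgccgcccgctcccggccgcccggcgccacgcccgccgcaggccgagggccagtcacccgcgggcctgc
Srxn1: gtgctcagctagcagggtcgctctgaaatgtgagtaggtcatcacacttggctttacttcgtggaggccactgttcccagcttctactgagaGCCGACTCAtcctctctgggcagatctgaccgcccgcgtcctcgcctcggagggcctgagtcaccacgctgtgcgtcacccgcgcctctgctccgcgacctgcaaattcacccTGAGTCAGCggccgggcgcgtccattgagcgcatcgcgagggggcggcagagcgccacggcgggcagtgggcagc
Me1: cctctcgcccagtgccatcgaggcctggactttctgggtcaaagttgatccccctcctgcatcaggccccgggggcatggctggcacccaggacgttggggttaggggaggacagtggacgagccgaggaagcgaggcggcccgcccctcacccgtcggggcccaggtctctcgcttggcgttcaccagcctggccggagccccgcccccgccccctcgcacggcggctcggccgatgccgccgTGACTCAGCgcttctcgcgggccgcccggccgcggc

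The core begins 121 bases before the start in Gsta3, 134 bases before it on the opposite strand in Gclm, and 6 bases before it in Me1. In Me1, at the Srxn1 site nearer the start and in Prdx1, given below, the capitals also contain the AP-1 site TGACTCA, on one strand or the other. For the other 4 genes only the core and the bases around it are given. In Mgst1, Txnrd1 and Prdx1 it begins 56, 92 and 133 bases before the start on the opposite strand, and in Nfe2l2 240 bases before it. These stretches lie at chr6:138140451-138140499 (plus strand) for Mgst1, chr10:82859094-82859142 (plus) for Txnrd1, chr4:116685446-116685494 (plus) for Prdx1 and chr2:75704875-75704913 (minus) for Nfe2l2.
Mgst1: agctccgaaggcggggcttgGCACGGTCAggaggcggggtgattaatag
Txnrd1: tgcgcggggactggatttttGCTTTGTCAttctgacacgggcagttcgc
Prdx1: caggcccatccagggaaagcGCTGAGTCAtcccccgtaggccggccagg
Nfe2l2: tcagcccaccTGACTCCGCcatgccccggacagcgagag

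RefSeq promoters (250 bases before to 50 after a start) were matched for 36 of the 42 genes, 46 promoters in all, with none for Gclc, Gsr, Gsta4, Gstt2, Prdx6 and Abcc1. The core TGACNNNGC stood in 23.9% of the 46 member promoters and in 12.4% of all 32851 promoters. The variant TGAGNNNGC stood in 6 of 46 against 17.6% of all, and the AP-1 site TGACTCA, which TGACTCAGC contains, in 10.9% against 5.2%. Among members that rose, 8 of 16 with a matched promoter held TGACNNNGC: Gclm, Gsta3, Mgst1, Nfe2l2, Pgd, Prdx1, Srxn1 (just after the start, beyond the stretch printed) and Txnrd1. Among those that fell it was 1 of 4, Me1, and among those not called 1 of 11, Sod1. Over all tested genes the share was 19.6% of those that rose, 18.2% of those that fell and 16.7% of those not called. A match describes letters in this window, and says nothing of binding, in either direction.

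Nfe2l2, which encodes NRF2, rose modestly and Keap1 did not pass the test. Nfe2l2 was at 198, 215 and 210 CPM in WT and 263, 243 and 262 CPM in KO. All 3 KO libraries were above all 3 WT libraries, and the mean was 1.23 times as high, a log2 fold change of 0.30 ± 0.06 (adjusted p = 0.00990). The call was lost without KO replicate 1 (adjusted p = 0.0512), and Nfe2l2 lies on chromosome 2 (mm10 chr2:75675513-75704641, minus strand), where expression was shifted as a whole in KO, as described further on. Keap1, the adaptor that marks NRF2 for destruction, averaged 54.8 ± 5.998 CPM in WT and 50.1 ± 2.29 CPM in KO (log2 fold change -0.12 ± 0.09, adjusted p = 0.339). Of its exonic bases, 10.9% overlap the antisense gene Gm16754.

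**Figure D2:**
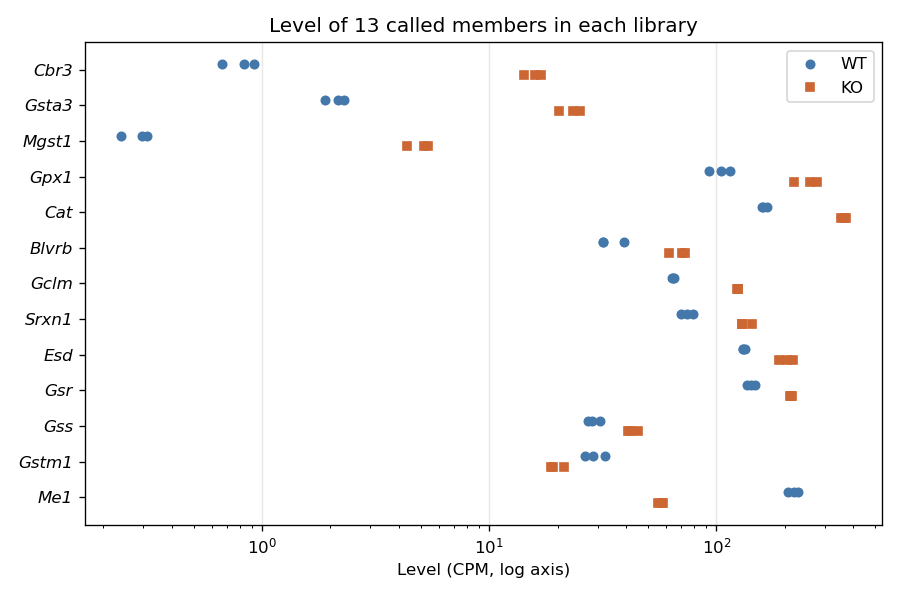
CPM in each of the 3 WT and 3 KO libraries, on a log axis, for the 13 genes that passed the test and changed by 0.5 or more on the log2 scale. The 13 were picked for their difference, so the lack of overlap between their KO and WT points is no separate result. All 22 called members and 46.4% of all tested genes lack overlap too. Cbr3 moves from under 1 CPM to between 14.3 and 16.9 CPM.

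Within glutathione synthesis and recycling 3 of 4 genes rose and Gclc did not pass. Gclm, the regulatory subunit of glutamate-cysteine ligase, which catalyses the rate-limiting step of glutathione synthesis, was at 64.9, 64.4 and 63.9 CPM in WT and 124, 125 and 123 CPM in KO (mm10 chr3:122245557-122270732, plus strand). It was 1.93 times as high (log2 fold change 0.94 ± 0.05, adjusted p = 1.45e-05), and its replicates were closer together than those of any other member, with a coefficient of variation of 0.810% in WT and 0.735% in KO. Gclc, the catalytic subunit of the same enzyme, averaged 142 ± 11.5 CPM in WT and 139 ± 6.89 CPM in KO (log2 fold change -0.03 ± 0.08, adjusted p = 0.829). The subunits of one enzyme thus had unlike differences. Per kilobase of exon, the level of Gclm was 10.2 CPM in WT and 19.7 CPM in KO, below that of Gclc at 37.6 and 36.9 CPM.

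Gsr, glutathione reductase, which returns oxidised glutathione to its reduced form with NADPH, was at 147, 137 and 142 CPM in WT and 216, 214 and 211 CPM in KO (mm10 chr8:33652523-33698163, plus strand). The KO mean was 1.503 times that of WT (log2 fold change 0.59 ± 0.06, adjusted p = 0.000232). Gss, glutathione synthetase, which completes the tripeptide, was at 30.7, 28.3 and 27.1 CPM in WT and 41.5, 45.0 and 40.7 CPM in KO (mm10 chr2:155563181-155592810, minus strand). It was 1.48 times as high (log2 fold change 0.56 ± 0.08, adjusted p = 0.00136). Gss is another chromosome 2 gene, and 15.4% of its exonic bases overlap antisense genes such as Acss2, whose reads cannot be told apart if strand was not used. The 4 genes summed to 377 ± 6.69 CPM in WT and 519 ± 2.66 CPM in KO.

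The glutathione transferases, which join glutathione to electrophiles, moved in both directions: of 10 listed and 7 tested, 2 rose, 2 fell and 3 did not pass. Both that rose were near or below 2 CPM in WT. Gsta3, an alpha-class transferase, was at 1.90, 2.29 and 2.16 CPM in WT and 25.0, 23.3 and 20.3 CPM in KO (mm10 chr1:21240589-21265661, plus strand), from 96 to 154 reads in WT and 1352 to 1760 in KO. This is a ratio of 10.8 (log2 fold change 3.16 ± 0.11, adjusted p = 9.41e-07). Mgst1, a microsomal transferase that also reduces lipid peroxides, was at 0.297, 0.312 and 0.240 CPM in WT and 5.37, 5.15 and 4.34 CPM in KO (mm10 chr6:138140316-138156755, plus strand). Its ratio was 17.5 on CPM, from 14 to 21 reads against 289 to 378, and the log2 fold change of 2.80 ± 0.11 (adjusted p = 2.47e-06) is smaller because 0.5 CPM is added before the logarithm. Mgst1 passed the expression minimum only through KO, so it had to differ once tested, and its p-value adds no support.

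Gstm1, a mu-class transferase, was at 32.2, 26.3 and 28.5 CPM in WT and 19.1, 21.3 and 18.6 CPM in KO (mm10 chr3:108012255-108017973, minus strand). It was 32.2% lower in KO (log2 fold change -0.55 ± 0.10, adjusted p = 0.00424). Of its 50-base stretches, 23.1% occur in transcripts of other genes, so its count is uncertain to that extent. Mgst3, a microsomal enzyme of the same family as the leukotriene C4 synthase, was at 112, 92.0 and 104 CPM in WT and 77.3, 87.1 and 68.2 CPM in KO, 24.5% lower (log2 fold change -0.41 ± 0.11, adjusted p = 0.0239). Its call did not survive leaving out WT replicate 3 (adjusted p = 0.0753), KO replicate 1 (0.0813) or KO replicate 3 (0.0751). Centring by chromosome also removed it (0.0803).

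Mgst2 was at 27.7, 37.5 and 27.9 CPM in WT and 26.3, 24.0 and 25.2 CPM in KO, without overlap between the groups but with an adjusted p of 0.120, and WT replicate 2 stood apart from its group. Gsto1, an omega-class enzyme, averaged 92.1 ± 4.89 CPM in WT and 93.6 ± 7.44 CPM in KO. Gstt2, of the theta class, averaged 10.2 ± 1.28 CPM in WT and 9.77 ± 0.473 CPM in KO, and neither passed (adjusted p = 0.854 and 0.743). Gstp1, the pi-class enzyme, was too low to be tested, at 1.09, 0.920 and 0.942 CPM in WT and 0.312, 0.418 and 0.270 CPM in KO. With no minimum on expression it was lower in KO (log2 fold change -0.83, adjusted p = 0.000863), and 62.3% of its 50-base stretches also occur in relatives such as Gstp2. Gstt1 had 2 to 6 reads in a library, and Gsta4 was listed at 0 in all 6.

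Among the genes listed under carbonyl and quinone reduction 3 of 4 tested genes rose, and these include Esd, an esterase and not a reductase. Cbr3, a carbonyl reductase, had the largest log2 fold change of the 36 tested members. It was at 0.832, 0.920 and 0.668 CPM in WT and 16.0, 16.9 and 14.3 CPM in KO (mm10 chr16:93683215-93690990, plus strand), 39 to 62 reads against 951 to 1125. The ratio was 19.5 (log2 fold change 3.64 ± 0.11, adjusted p = 5.30e-07). Cbr3 passed the expression minimum only through KO, so it had to differ once tested, and its p-value adds no support. Its paralogue Cbr1 lies just upstream on the same chromosome (mm10 chr16:93605853-93610505) and averaged 28.5 ± 2.72 CPM in WT and 28.9 ± 1.74 CPM in KO (log2 fold change 0.02 ± 0.09, adjusted p = 0.881). Other genes' transcripts hold 0.0892% of the 50-base stretches of Cbr3 and 2.34% of those of Cbr1, so the paralogues can be told apart by sequence.

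Blvrb, biliverdin reductase B, which also reduces flavins, was at 39.2, 31.6 and 31.8 CPM in WT and 70.9, 72.7 and 61.6 CPM in KO. It was 2.00 times as high (log2 fold change 0.99 ± 0.11, adjusted p = 0.000364). Esd, the esterase that frees formate from S-formylglutathione, was at 131, 131 and 134 CPM in WT and 205, 218 and 188 CPM in KO, 1.54 times as high (log2 fold change 0.62 ± 0.07, adjusted p = 0.000461). KO replicate 3 was the lowest KO library for both genes and still lay above every WT library. The quinone reductase Nqo1, a standard readout of NRF2, was listed at 0 in all 6 libraries. A listed 0 need not mean that a gene is silent, since B2m, which nearly every cell transcribes, was also listed at 0 in every library. The genes of this role summed to 195 ± 6.31 CPM in WT and 316 ± 24.0 CPM in KO, a ratio of 1.62, the highest of the roles. Of these sums Esd alone averaged 132 CPM in WT and 203 CPM in KO.

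In the thioredoxin system 2 genes rose, 1 fell and 1 did not pass. All 4 had non-overlapping groups, as had 46.4% of all tested genes. Srxn1, sulfiredoxin, which repairs over-oxidised peroxiredoxins, was at 79.0, 70.0 and 74.0 CPM in WT and 130.0, 144 and 129 CPM in KO (mm10 chr2:152105516-152111376, plus strand). The ratio was 1.81 (log2 fold change 0.85 ± 0.07, adjusted p = 0.000123). Txnrd1, the cytosolic thioredoxin reductase, averaged 291 ± 10.0 CPM in WT and 373 ± 10.5 CPM in KO, 1.28 times as high (log2 fold change 0.36 ± 0.06, adjusted p = 0.00306). Its mitochondrial counterpart Txnrd2 was at 30.5, 28.8 and 27.3 CPM in WT and 22.2, 25.0 and 24.2 CPM in KO, 17.5% lower (log2 fold change -0.27 ± 0.08, adjusted p = 0.0336). That call was lost without any one of WT replicate 1, WT replicate 2 and the 3 KO replicates (adjusted p = 0.0531, 0.0621, 0.132, 0.0613 and 0.0796). Txn1, thioredoxin itself, averaged 448 ± 8.33 CPM in WT and 503 ± 14.9 CPM in KO. Its log2 fold change of 0.17 ± 0.06 had an adjusted p of 0.0633, which was 0.0365 without WT replicate 1.

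The peroxiredoxins, which reduce hydrogen peroxide with electrons from thioredoxin, had 2 of 6 genes that rose and 4 that did not pass. Prdx1, a cytosolic member, was at 735, 785 and 830 CPM in WT and 981, 1051 and 943 CPM in KO, 1.27 times as high (log2 fold change 0.34 ± 0.07, adjusted p = 0.0109). Prdx3, the mitochondrial one, averaged 113 ± 4.15 CPM in WT and 133 ± 8.80 CPM in KO (log2 fold change 0.23 ± 0.07, adjusted p = 0.0391). Its call was lost whichever library was left out, with adjusted p-values of 0.0527, 0.0642 and 0.0818 without WT replicates 1, 2 and 3 and 0.0772, 0.137 and 0.0679 without KO replicates 1, 2 and 3. Prdx2 averaged 150 ± 13.1 CPM in WT and 123 ± 13.7 CPM in KO (log2 fold change -0.29 ± 0.10). Its adjusted p was 0.0587, and became 0.0325 without WT replicate 2 and 0.0362 without KO replicate 2. Of its 50-base stretches 23.8% are shared with other genes, and 11.5% of its exonic bases overlap neighbours including Junb. The other 3, Prdx4, Prdx5 and Prdx6, had log2 fold changes between -0.06 and -0.03 (adjusted p = 0.583, 0.841 and 0.563).

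Among the peroxidases, dismutases and catalase the hydrogen-peroxide enzymes rose and the superoxide dismutases did not pass. Cat, catalase, was at 159, 160 and 166 CPM in WT and 352, 371 and 365 CPM in KO (mm10 chr2:103453849-103485160, minus strand). The ratio was 2.24 (log2 fold change 1.16 ± 0.06, adjusted p = 6.15e-06). Gpx1, the cytosolic glutathione peroxidase, was at 114, 92.9 and 105 CPM in WT and 258, 276 and 218 CPM in KO (mm10 chr9:108338903-108340343, plus strand), a ratio of 2.41 (log2 fold change 1.27 ± 0.11, adjusted p = 0.000111). KO replicate 3 was its lowest KO library, and it was still far above the highest WT library. Sod1, the cytosolic dismutase, averaged 242 ± 24.9 CPM in WT and 235 ± 16.1 CPM in KO (log2 fold change -0.04, adjusted p = 0.766). Sod2, the mitochondrial dismutase, averaged 120 ± 2.37 CPM in WT and 134 ± 1.72 CPM in KO, without overlap (log2 fold change 0.16 ± 0.05, adjusted p = 0.0564). Gpx4, which reduces lipid peroxides in membranes, was listed at 0 in all libraries, and 61.7% of its 50-base stretches occur in other genes such as Gpx4-ps2.

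The genes listed under NADPH production split, and they include Taldo1 and Tkt, which do not make NADPH themselves. Me1, the cytosolic malic enzyme, which makes NADPH from malate, fell furthest of the members. It was at 207, 228 and 219 CPM in WT and 58.1, 57.6 and 55.5 CPM in KO (mm10 chr9:86581371-86695953, minus strand), 73.8% lower (log2 fold change -1.92 ± 0.06, adjusted p = 6.72e-07). Every WT library was far above every KO library, although 32.8% of its 50-base stretches occur in other genes such as Gm7049, so part of the count could belong to those. Pgd, which makes NADPH in the oxidative branch of the pentose phosphate pathway, averaged 310 ± 21.6 CPM in WT and 411 ± 25.7 CPM in KO (ratio 1.33, log2 fold change 0.41 ± 0.08, adjusted p = 0.00549). Taldo1, transaldolase of the non-oxidative branch, averaged 176 ± 16.0 CPM in WT and 230 ± 15.3 CPM in KO (ratio 1.31, log2 fold change 0.39 ± 0.08). Its adjusted p was 0.0110, and 0.0507 without KO replicate 1. Tkt, transketolase of the same branch, averaged 651 ± 76.9 CPM in WT and 669 ± 38.2 CPM in KO (adjusted p = 0.767). G6pdx, which opens the pathway, was listed at 0 in all libraries. Because Me1 fell while Pgd and Taldo1 rose, the role's sum was 1355 ± 104 CPM in WT and 1367 ± 79.1 CPM in KO. Abcc1, a pump that exports glutathione conjugates, was at 165, 154 and 153 CPM in WT and 184, 198 and 199 CPM in KO, 1.23 times as high (log2 fold change 0.30 ± 0.06, adjusted p = 0.00983).

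To compare levels between genes, CPM was divided by exon length in kilobases. Of the 38 members with any reads, Txn1 was highest in both groups, at 426 CPM per kb in WT and 479 CPM per kb in KO, followed by Prdx1 at 257 and 326 CPM per kb. Gpx1 went from the 8th place in WT (72.1 CPM per kb) to the 3rd in KO (174), and Cat from the 9th (61.8) to the 4th (139). Me1 went the other way, from the 11th place (56.7 CPM per kb) to the 24th (14.8). The genes with the largest ratios stayed low on this scale: in KO Cbr3 reached 12.5 CPM per kb, near the 11.3 CPM per kb of Cbr1, while Gsta3 reached 5.27 and Mgst1 2.46 CPM per kb. In WT Prdx6 at 94.5 and Mgst3 at 93.7 CPM per kb were neighbours that did not differ beyond their spread.

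The KO replicates did not rank alike among the members. KO replicate 2 was the highest of its group in 26 of the 36 tested members, beside 33.7% of all genes, and KO replicate 3 the lowest in 27, beside 23.5% of all genes. KO replicate 3 was the highest in 3 of 36, beside 48.3% of all genes. WT replicate 1 was the highest of its group in 22 of 36, beside 38.3% of all genes, and WT replicate 2 in 8, beside 53.8%. The members' median difference from the WT mean was nevertheless close in the 3 KO libraries, at 0.17, 0.22 and 0.17 on the log2 scale. The median coefficient of variation of the members was 6.64% in WT and 6.04% in KO, beside 8.54% and 6.05% over all genes.

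The chromosome with the largest shift in KO holds 4 of the genes. On chromosome 2, 63.4% of 856 tested genes were called and the median log2 fold change was 0.34, with each of the 3 KO libraries between 0.32 and 0.37. Nfe2l2, Gss, Srxn1 and Cat all lie there, and all 4 rose. Against the chromosome's median, Nfe2l2 lay at -0.036, Gss at 0.22, Srxn1 at 0.51 and Cat at 0.83. When every library was centred on each chromosome's median, Cat (adjusted p = 4.61e-05) and Srxn1 (0.00273) still passed, whereas Gss (0.0742) and Nfe2l2 (0.714) did not. Off chromosome 2, Mgst3 lost its call under the same centring (0.0803) and Sod2 passed (0.0269). Elsewhere in the genome 14 of 32 tested members rose (43.8%, beside 9.59% of the 9646 genes tested there), 4 fell (12.5% beside 18.0%) and 14 did not pass, so that 56.2% were called beside 27.6%. Those that rose there include Cbr3 and Mgst1, which passed the expression minimum only through KO and so had to differ. The median log2 fold change of those 32 was 0.10, beside 0.20 for all 36, and that of all genes off chromosome 2 was -0.04. How far the shift of the chromosome accounts for these 4 values was not tested beyond this centring.

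**Figure D3:**
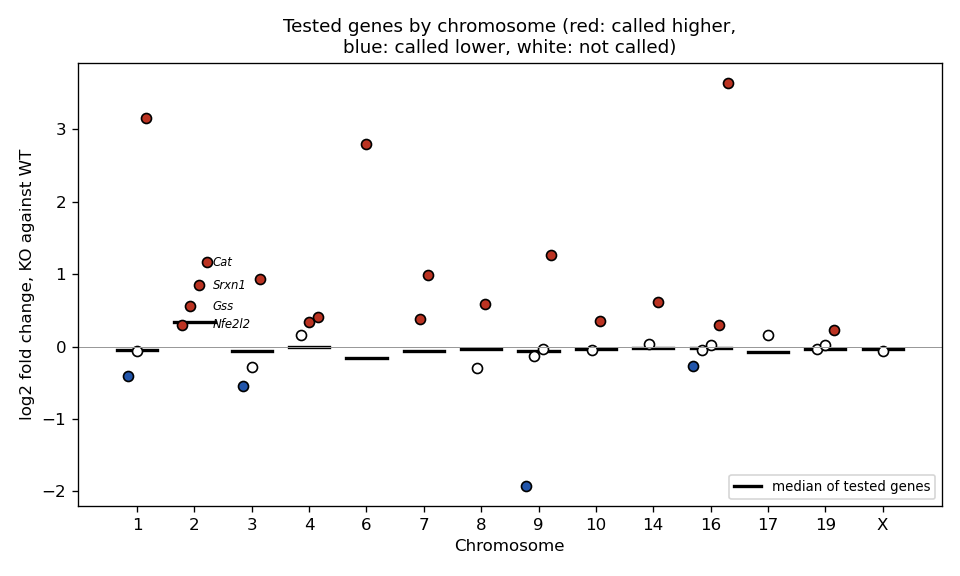
Log2 fold change (KO minus WT) of the 36 tested genes by chromosome, with the median of all tested genes on each chromosome as a bar. The bar of chromosome 2 stands at 0.34 and the 4 members there lie from 0.30 to 1.16, with Nfe2l2 at the bar itself.

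Related genes outside the 42 were counted in the same fit. Of 30 other reported NRF2 targets, 21 were tested, 13 rose, 2 fell and the median log2 fold change was 0.23. Those that rose made up 61.9%, beside 13.5% of all genes, and those that fell 9.52%, beside 16.9%. The number that rose was 8 without KO replicate 1 and 9 to 13 without any other single library. Ephx1, microsomal epoxide hydrolase, averaged 63.2 ± 5.00 CPM in WT and 109 ± 5.84 CPM in KO (log2 fold change 0.78, adjusted p = 0.000269). Trim16, a ubiquitin ligase, rose 1.77-fold (adjusted p = 0.00137), Osgin1, an oxidative-stress-induced growth inhibitor, 1.70-fold (0.00188) and Uap1l1, on chromosome 2, 1.58-fold (0.000699). Blvra, named because it also lies on chromosome 2, rose 1.31-fold (adjusted p = 0.00197) and was not called when centred by chromosome (0.569). Against that chromosome's median, Uap1l1 lay at 0.32 and Blvra at 0.055. Cbr2, another carbonyl reductase, fell from 1.75 ± 0.0834 to 0.459 ± 0.0236 CPM (adjusted p = 8.42e-05), having passed the expression minimum only through WT. Hmox1, Fth1 and Slc7a11 are named because they are familiar NRF2 targets, after their values were seen. Hmox1, heme oxygenase 1, averaged 67.7 ± 5.12 CPM in WT and 78.6 ± 4.65 CPM in KO (log2 fold change 0.22, adjusted p = 0.0723), and passed without WT replicate 1 (0.0156), with DESeq2 (0.0455), centred by chromosome (0.0439) and with a length and GC trend taken out (0.00515). Fth1, the ferritin heavy chain, averaged 7742 ± 782 CPM in WT and 10582 ± 726 CPM in KO (log2 fold change 0.45, adjusted p = 0.0148), and its call was lost without WT replicate 3, KO replicate 1 or KO replicate 2 (adjusted p = 0.0552, 0.0668 and 0.0528). Slc7a11, the cystine importer that feeds glutathione synthesis, averaged 54.8 CPM in WT and 80.2 CPM in KO (log2 fold change 0.56, adjusted p = 0.0219), and its call was lost without KO replicate 1 (0.0656) or KO replicate 3 (0.0767).

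Of 16 tested factors that partner or control NRF2, 2 rose, which is 12.5% and near the 13.5% of all genes, the rest were not called, and the median log2 fold change was 0.02. Without WT replicate 3 or any one KO replicate 1 of the 16 rose. Bach1, a repressor that competes for the same elements, averaged 50.4 ± 6.84 CPM in WT and 69.9 ± 3.33 CPM in KO (log2 fold change 0.48 ± 0.10, adjusted p = 0.0110). Ppp1r13l averaged 6.64 CPM in WT and 9.11 CPM in KO (log2 fold change 0.43), with an adjusted p of 0.0213 that was 0.0530 to 0.0849 without WT replicate 3 or any one KO replicate. Of 52 other glutathione, thioredoxin and NADPH genes, 32 were tested, 5 rose, 4 fell and the median was 0.01. The number that fell was 2 without WT replicate 3 or KO replicate 1 and 1 without KO replicate 3. The share called was 28.1%, near that of all genes. Msrb1, a methionine sulfoxide reductase, rose from 47.0 to 80.7 CPM (adjusted p = 0.000507), and Gstk1, a kappa-class transferase, from 1.19 to 2.76 CPM (0.000659). Gstm4 rose from 4.86 to 6.64 CPM (0.00909). On chromosome 2, Msrb2 fell from 8.61 to 3.72 CPM (adjusted p = 0.000171) and Chac1, which breaks glutathione down, rose from 6.61 to 13.2 CPM (0.000338).

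**Figure D4:**
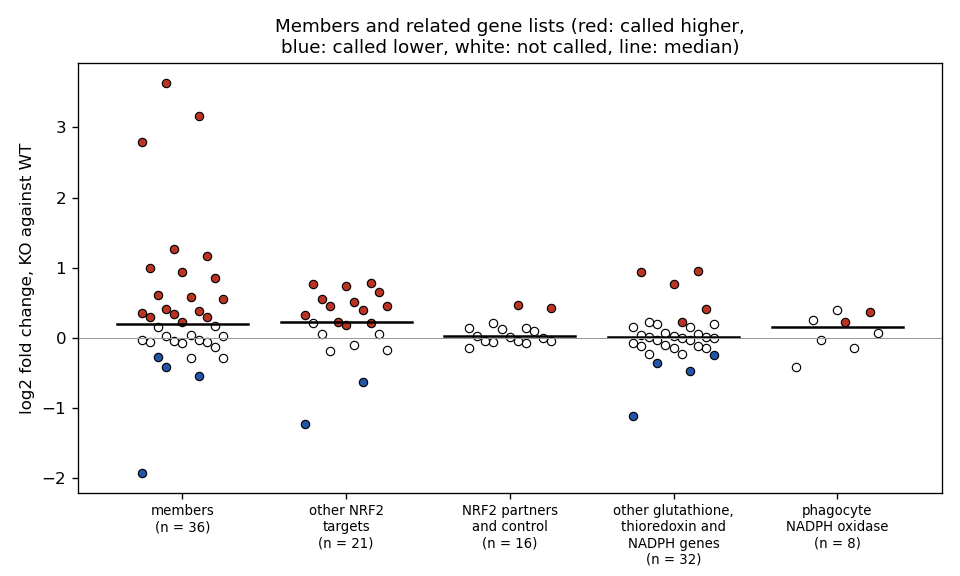
Log2 fold change (KO minus WT) of every tested gene in the 42-gene set and in the related lists, with each list's median as a line. The medians are 0.20 for the 42-gene set, 0.23 for the other NRF2 targets, 0.02 for NRF2's partners and controllers, 0.01 for the other glutathione, thioredoxin and NADPH genes and 0.15 for the phagocyte NADPH oxidase, and the lists overlap widely.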

How the data were processed

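Poly(A) RNA libraries from 3 WT and 3 KO plates were read as deposited. The authors deposited a table of CPM per gene symbol, and no further scaling is recorded. STAR 2.6.0a, Picard, Trim Galore, SAMtools and FastQC and the build mm10 are named, with no order, per the submitters' processing notes. Duplicates had been removed, per the file headers, which can hold down the most abundant genes. Counter, annotation and strand setting were not given in the sources used here.

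Every CPM value was a whole multiple of the worth of 1 read (100% of values, tolerance 0.01 of a read), so reads were recovered. The WT libraries held 50493447, 67392191 and 58408190 reads, and the KO libraries 70411383, 59768682 and 66647726. Floors allow for counting error only, and the libraries have no molecular identifiers. Read counts varied between plates of a group beyond counting error, with a chi-square per degree of freedom of 37.6 to 198.

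The test was limma 3.58.1 (R 4.3.3, mean-variance trend, no covariates) on log2(CPM + 0.5), for genes reaching 1 CPM in at least 3 of 6 libraries. P-values were Benjamini-Hochberg adjusted over all 10614 tested genes and called under 0.05. Fold changes on this scale understate those of low genes. The step was tested on simulated data. The edgeR 4.0.16 and DESeq2 1.42.0 fits on recovered reads, other scalings, filters and pseudocounts, chromosome centring, a replicate block and leaving out each library were alternatives. Removal of a length and GC trend was added after seeing the data.

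Positions, exon lengths, overlaps and shared 50-base stretches come from GENCODE M21 on mm10, with 24313 of 24848 symbols matched. The members and lists were chosen with earlier results of these data known. All 42 genes are given by role, and those called and changed by 0.5 or more on the log2 scale are given library by library. Up to 5 called genes by adjusted p are named from each related list. A gene that this rule selects is not reported here.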

Additional observations from a re-analysis of the deposited data

How the results depend on the processing

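Of the 22 called members, 15 kept their call under all 19 alternatives in which they were tested (13 higher, 2 lower). The 7 that lost it under at least 1 were Abcc1, Gss, Mgst3, Nfe2l2, Prdx3, Taldo1 and Txnrd2, and 4 uncalled members (Mgst2, Prdx2, Sod2 and Txn1) passed under at least 1. Among called members, Nfe2l2 alone changed direction in these alternatives, at -0.036 (adjusted p = 0.714) when centred by chromosome. Of the uncalled members, 7 had log2 fold changes of both signs over the alternatives: Cbr1, Gclc, Gsto1, Gstt2, Prdx5, Sod1 and Tkt. Members that rose numbered 15 with quantile normalization, 19 with edgeR and 20 with DESeq2, and 15 to 18 with a library left out. Members that fell numbered 2 to 4 with a library left out. Their median log2 fold change was 0.17 at a minimum of 5 CPM, 0.22 with TMM scaling, 0.14 with quantile normalization, 0.225 with edgeR and 0.227 with DESeq2, and 0.17 to 0.22 with a library left out. All genes called numbered 4867 once a length and GC trend was taken out (2422 higher, 2445 lower) and 1973 to 3761 with a library left out, the lowest without KO replicate 1. Apobec1 passed with quantile normalization (-0.27, adjusted p = 0.0132), without Rn45s (-0.22, 0.0409), with DESeq2 (-0.18, 0.0327) and after that same correction (-0.20, 0.0103), and lay at -0.25 to -0.15 with a library left out (adjusted p = 0.0169 without WT replicate 1). Centred by chromosome it lay at -0.045 (0.641). The cause was not tested.

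Libraries of the same replicate number did not deviate together (r of -0.247, -0.641 and -0.173), and those of different numbers had r of -0.438 to 0.614. The deviations were taken from group means, which ties these values to one another. Whether the plates were handled in pairs therefore cannot be told from them. With the replicate number as a block 2009 genes were called, 15 members rose and 2 fell. Depth limits the genes near 0, such as Gstt1 at 2 to 6 reads.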

Other observations

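The phagocyte NADPH oxidase, which makes the superoxide that the antioxidant enzymes clear, was measured in the same libraries. Of 14 listed genes 8 were tested, 2 rose in KO and 6 did not pass, with a median log2 fold change of 0.15. Ncf4, a cytosolic subunit (p40phox), was at 64.8, 60.1 and 59.4 CPM in WT and 77.6, 84.7 and 77.2 CPM in KO (log2 fold change 0.38 ± 0.07, adjusted p = 0.00514 by limma). The catalytic subunit Cybb averaged 43.2 ± 6.76 CPM in WT and 56.8 ± 6.35 CPM in KO (log2 fold change 0.40 ± 0.13, adjusted p = 0.0529). Cybb passed with TMM scaling (0.0273), quantile normalization (0.0384), edgeR (0.0264) and DESeq2 (0.00524). It also passed centred by chromosome (0.0192), with the replicate block (0.0245), without WT replicate 2 (0.0289) and with a length and GC trend taken out (0.0117). Under the remaining alternatives it was not called. Its membrane partner Cyba was at 288 ± 32.2 and 262 ± 30.7 CPM, and the organiser Ncf1 at 252 ± 2.31 and 248 ± 5.68 CPM (adjusted p = 0.387 and 0.763). The share of tested oxidase genes called was 25.0%, beside 30.4% of all genes. All of those called rose, so the share that rose was also 25.0%, beside 13.5% of all genes. The number that rose was 1 without WT replicate 3 or any one KO replicate, and 4 with DESeq2 or centred by chromosome.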
